A study of Mus musculus with 5 samples.

Results

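The SoxC genes (Sox4, Sox11 and Sox12) and the SoxD genes (Sox5, Sox6 and Sox13) are 2 groups of 3 mouse genes each, 6 of the 21883 protein-coding genes used here. Their members here are sites of open chromatin. In each of 5 deposited lists of ATAC-seq peaks, a summit was taken if it lay inside one of the genes or within 200 kb of it and no other protein-coding gene was nearer. This gave 94 and 108 summits in the forelimb lists, 67 and 137 in the hindlimb lists and 270 in the forebrain list. Merged over libraries, they fell into 364 regions, out of 200224 regions within 200 kb of any protein-coding gene and 231612 in all.

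ATAC-seq marks accessible DNA by letting a transposase insert sequencing adapters into it. The libraries came from embryos of the CD1 mouse stock. Distal limb ectoderm at E14.5 (days of embryonic development) gave 4 of them, 2 from forelimb and 2 from hindlimb, and forebrain at E13.5 gave 1. Ectoderm was peeled from the mesoderm with trypsin and forebrain was dissociated with collagenase, so tissue, stage and enzyme change together and cannot be told apart. The labels give no genotype beyond the stock and do not say whether replicates came from different litters. Each sample is a bulk tissue, in which fewer cells with an open site and less opening per cell cannot be told apart.

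Sox proteins bind DNA through a domain named the HMG box, which they share with the sex-determining protein Sry. The SoxC proteins activate transcription in many progenitor and newly differentiating cells. Sox4 and Sox11 act in young neurons of the forebrain, and both are also made in embryonic epidermis. The SoxD proteins have a coiled coil through which they pair and have no known activation domain of their own. Sox5 and Sox6 work with Sox9 in cartilage, Sox5 in deep-layer neurons of the cortex and Sox6 in cortical interneurons.

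Promoters of the SoxC genes had a peak in both tissues, and those of the SoxD genes were less uniform. The sequences below are from RefSeq in build GRCm38.p6. For Sox4, Sox11, Sox12 and Sox13 they are the start sites whose accessibility is compared next. For Sox5 and Sox6 they are internal starts, 835181 and 216066 bases from the annotated 5′ ends that are compared next. Each runs from 250 bases before to 50 bases after an annotated start. All 6 genes lie on the minus strand. Capitals mark the Sox core sites ACAAAG and ACAATG, the GC box GGGCGG and the CCAAT box, each on either strand, and neighbouring copies can share bases.
Sox4, chr13:28953650-28953949, minus strand: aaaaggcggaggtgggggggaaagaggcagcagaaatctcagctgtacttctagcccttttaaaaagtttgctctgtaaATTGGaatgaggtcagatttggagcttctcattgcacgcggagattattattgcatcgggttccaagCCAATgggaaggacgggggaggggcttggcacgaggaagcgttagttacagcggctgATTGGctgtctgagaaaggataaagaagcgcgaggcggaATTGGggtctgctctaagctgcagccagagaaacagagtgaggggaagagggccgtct
Sox11, chr12:27342669-27342968, minus strand: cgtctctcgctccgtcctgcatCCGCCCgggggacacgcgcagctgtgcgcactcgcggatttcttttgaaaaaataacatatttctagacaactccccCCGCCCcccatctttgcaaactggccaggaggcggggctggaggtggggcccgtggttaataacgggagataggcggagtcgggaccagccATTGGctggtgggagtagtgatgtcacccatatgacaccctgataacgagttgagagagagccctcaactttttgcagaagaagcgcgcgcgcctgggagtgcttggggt
Sox12, chr2:152397997-152398296, minus strand: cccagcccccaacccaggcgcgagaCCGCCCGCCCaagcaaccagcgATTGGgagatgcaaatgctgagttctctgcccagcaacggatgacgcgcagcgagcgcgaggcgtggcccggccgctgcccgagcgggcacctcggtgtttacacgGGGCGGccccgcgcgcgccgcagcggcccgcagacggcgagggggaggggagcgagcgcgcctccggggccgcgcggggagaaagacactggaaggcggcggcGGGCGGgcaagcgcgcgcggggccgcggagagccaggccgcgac
Sox13, chr1:133424163-133424462, minus strand: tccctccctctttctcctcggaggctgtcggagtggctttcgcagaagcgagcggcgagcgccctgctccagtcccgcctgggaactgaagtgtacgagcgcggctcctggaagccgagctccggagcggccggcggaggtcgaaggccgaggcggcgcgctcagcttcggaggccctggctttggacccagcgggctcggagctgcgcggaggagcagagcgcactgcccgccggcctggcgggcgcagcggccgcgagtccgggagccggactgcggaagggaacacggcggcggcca
Sox6 (an internal start), chr7:115824661-115824960, minus strand: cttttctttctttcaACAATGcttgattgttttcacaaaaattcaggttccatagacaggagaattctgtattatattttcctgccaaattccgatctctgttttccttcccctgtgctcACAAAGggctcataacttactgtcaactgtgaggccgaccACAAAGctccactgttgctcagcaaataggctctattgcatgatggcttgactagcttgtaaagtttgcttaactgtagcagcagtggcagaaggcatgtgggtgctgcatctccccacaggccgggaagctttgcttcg
Sox5 (an internal start), chr6:143947057-143947356, minus strand: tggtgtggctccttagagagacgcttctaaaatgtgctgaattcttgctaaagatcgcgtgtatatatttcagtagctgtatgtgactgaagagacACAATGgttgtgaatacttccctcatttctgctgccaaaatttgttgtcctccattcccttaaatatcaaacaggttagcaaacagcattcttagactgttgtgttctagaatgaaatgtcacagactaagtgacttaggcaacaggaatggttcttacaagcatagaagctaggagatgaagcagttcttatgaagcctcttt

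A CCAAT box, the site of the factor NF-Y, occurred 4 times in the Sox4 window and once each in those of Sox11 and Sox12. Of the 11 windows of the 6 genes, 6 held it, among them 1 of Sox6 not shown with 4 copies. It was found in 38.2% of 21262 windows of protein-coding genes. The GC box bound by Sp and Klf factors occurred 4 times in Sox12, 2 times in Sox11 and 4 times in 1 window of Sox6 not shown. These were 3 of the 11 windows, against 46.2% of all windows with at least 1 copy. No SoxC window and not that of Sox13 held a Sox core site, which 16.8% (ACAAAG) and 11% (ACAATG) of all windows had. The Sox6 window shown held 2 copies of ACAAAG and 1 of ACAATG, and the Sox5 window 1 ACAATG. Of the 11 windows, 5 held ACAAAG, all of them at Sox6, and 3 held ACAATG, at Sox5 and Sox6. The share of G and C bases was 52% in Sox4, 58.7% in Sox11, 76.7% in Sox12 and 73.3% in Sox13, against 45% in the Sox6 and 39.7% in the Sox5 window and a median of 56.3% over all windows. In the Sox6 windows not shown it ran from 36.7% to 63.3%. Other motifs were searched on both strands. The E-box CACGTG (7.84% of all windows), the homeodomain core TAATTA (4.53%), the AP-1 site TGANTCA (6.99%) and the Grhl site AACCGGTT (0.179%) were in none of the 11 windows of the 6 genes. The TATA box TATAAA (12.6%) was in 2 windows of Sox6 not shown. The E-box CAGCTG (15.6%) was in those of Sox4 and Sox11 and in 1 of Sox6, the AP-2 site GCCNNNGGC (19.9%) in that of Sox11, and AACCNGTT (1.95%), which takes in the Grhl site, in that of Sox5. Such matches describe these letters and do not show that a factor binds.

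The Sox4 promoter region, chr13:28952643-28954128, had a peak in all 5 libraries. Its fold enrichment, the authors' value over local background within each list, was 5.69 and 6.64 in the forelimb lists and 5.98 and 8.69 in the hindlimb lists, against 9.80 in forebrain. By −log10 p among the summits of its own list it stood at percentiles 87.4 and 92.4 in forelimb, 92.5 and 94.8 in hindlimb, against 97.2 in forebrain. The summits lay 62 to 120 bases before the start in ectoderm and 44 bases before it in forebrain. Folds and ranks belong to their own list, and lists differ in length, so they are given side by side and no change is read from them.

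The Sox11 promoter region, chr12:27341860-27343593, was likewise open in all 5 libraries. Its fold was 9.79 and 8.02 in forelimb, 7.29 and 10.6 in hindlimb, against 11.2 in forebrain, at percentiles 95.6, 92.2, 94.4, 95.2 and 98.2 in that order. In forelimb replicate 2 it ranked just below the Sox4 promoter, and in the other libraries above it. Sox12 lies in 19.9 kb of sequence of its own between Nrsn2 and Zcchc3. It had 3 regions, and all 3 had a peak in all 5 libraries. The one at its start, chr2:152396859-152398385, had a fold of 2.35 and 3.15 in forelimb, 2.70 and 3.81 in hindlimb, against 4.62 in forebrain. The forelimb replicate 1 peak there did not reach the 300-base window. A region inside the gene, chr2:152396021-152396635, ranked higher in the ectoderm lists, at percentiles 97.4, 89.6, 96.8 and 96.4, and at 93.3 in forebrain. The third, chr2:152398615-152399364, just before the gene, had folds of 3.70 and 5.86 in forelimb, 4.82 and 6.68 in hindlimb, against 6.43 in forebrain.

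Of the SoxD genes, only Sox6 had a peak at its annotated 5′ end in all 5 libraries. That region, chr7:116039501-116040558, had folds of 5.48 and 5.05 in forelimb, 2.79 and 5.62 in hindlimb, against 12.6 in forebrain. Its percentile was 26.6 in hindlimb replicate 1 and 73.3 to 76.2 in the other ectoderm libraries, and 92.9 in forebrain. The Sox13 region, chr1:133422687-133424546, had no peak in forelimb replicate 2. Its fold was 2.94 in forelimb replicate 1, 2.65 and 3.46 in hindlimb, against 5.49 in forebrain. The Sox5 region, chr6:144781401-144783046, had a peak in forelimb replicate 1 (fold 2.84), in hindlimb replicate 2 (3.94) and in forebrain (5.13), and none in the other two ectoderm libraries.

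Counted over the 300-base windows, 2 of the 6 genes (Sox4 and Sox11) had a peak in all 5 libraries, against 45.3% of 17491 protein-coding genes with a window. None of the 6 had one in each ectoderm library but not in forebrain (0.4% of genes), or in forebrain with every ectoderm library lacking it (4.78%). Of the 6 windows of Sox6, 1 had a peak, the internal start shown above, in hindlimb replicate 2 (fold 4.61) and forebrain (3.45). The Sox5 window had none in any library, and the annotated 5′ ends of Sox5 and Sox6 are not among the windows.

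**Figure D1:**
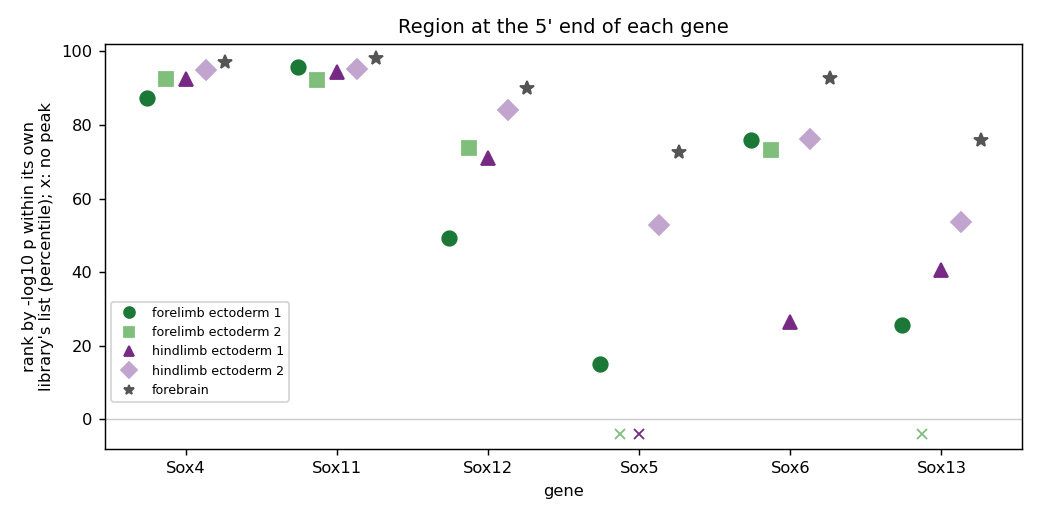
Rank of the peak at the 5′ end of each gene within its own library's list, as a percentile by −log10 p (y axis), for the 4 ectoderm libraries and forebrain; a cross marks a library with no peak. Sox11 lay at percentile 92.2 or higher in every library, whereas Sox5 lacked a peak in 2 ectoderm libraries and Sox13 in 1.

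Across their whole neighbourhoods the 6 genes had fewer regions with a peak in ectoderm than in forebrain. There were 82 and 97 in forelimb, 63 and 121 in hindlimb, against 211 in forebrain. The forebrain list is also the longest. Per 10000 regions of each list, the 6 genes held 11.6 and 13.8 in forelimb, 12.8 and 16.1 in hindlimb, against 17.6 in forebrain. The 2 families differed in this measure. SoxC genes held 3.83 and 5.25 per 10000 regions in forelimb, 6.08 and 5.45 in hindlimb, against 4.50 in forebrain, so that forebrain lay within the range of the ectoderm libraries. SoxD genes held 7.79 and 8.51 in forelimb, 6.69 and 10.6 in hindlimb, against 13.1 in forebrain, above each ectoderm library.

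Sox5 and Sox6 carried that difference. Sox5 had 30 and 38 regions in forelimb, 21 and 44 in hindlimb, against 90 in forebrain. Sox6 had 20 and 21 in forelimb, 10 and 28 in hindlimb, against 58 in forebrain. Both stood highest in forebrain, also per 10000 regions of the list, at 5.85 or fewer in ectoderm and 7.51 in forebrain for Sox5, and at 3.73 or fewer and 4.84 for Sox6. Sox13, a gene known from T cells and arteries, had 5 and 1 in forelimb, 2 and 8 in hindlimb, against 9 in forebrain, so its replicates spread as widely as the tissues.

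Sox4 had 12 and 20 regions in forelimb, 11 and 21 in hindlimb, against 31 in forebrain. Sox11 had 12 and 14 in forelimb, 16 and 17 in hindlimb, against 20 in forebrain. Per 10000 regions of the list, Sox4 stood at 1.70 to 2.84 in ectoderm and 2.59 in forebrain, and Sox11 at 1.70 to 3.24 in ectoderm and 1.67 in forebrain. Sox11 was thus lower in forebrain than in each ectoderm library on this scale, if barely so against forelimb replicate 1.

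**Figure D2:**
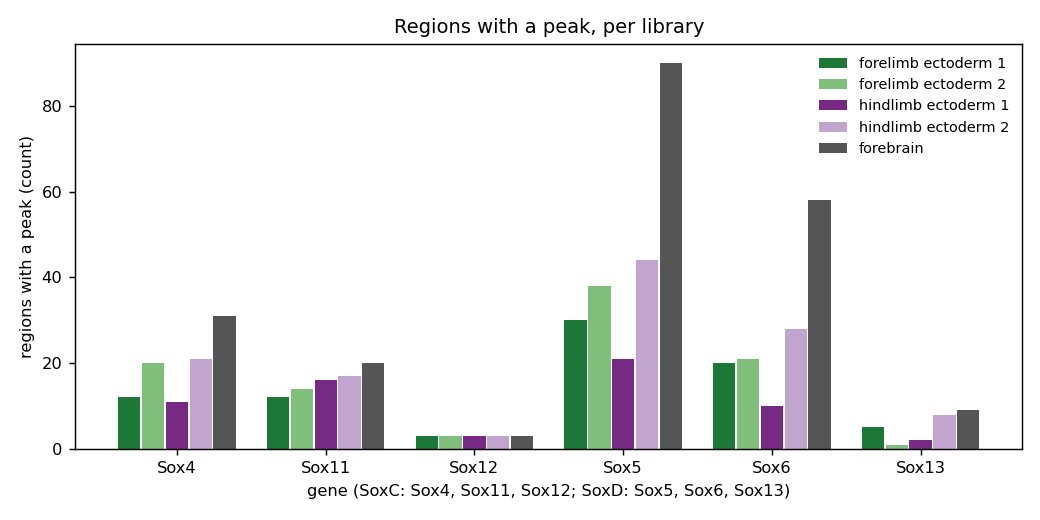
Number of regions with a peak (y axis) at each of the 6 genes (x axis) in the 4 ectoderm libraries and in forebrain, 1 bar per library. Sox5 and Sox6 show the widest gap, with 90 and 58 regions in forebrain against at most 44 and 28 in any ectoderm library.

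Sites used by one tissue were then separated from shared ones. Here ectoderm-only means that each of the 4 ectoderm libraries, but not forebrain, had a peak there, and forebrain-only that forebrain alone did. The first class requires a peak in 4 libraries and the second in 1, so their counts are not equally strict. No p-value is given, because forebrain has 1 library. Of the 364 regions, 13 were ectoderm-only (3.57%, against 2.37% over all protein-coding genes), 154 were forebrain-only (42.3%, against 32.4%) and 13 had a peak in all 5 libraries (3.57%, against 7.6%). The other 184 had other combinations. Without hindlimb replicate 1, the list with fewest peaks, 20 regions were ectoderm-only (5.87%, against 5.19% over all genes) and 22 were open in all remaining libraries (6.45%, against 11.6%). With every list held to the length of the shortest, 60 were forebrain-only, 30.6% of the regions left against 18.5% over all genes. Inside gene bodies alone, 44.8% of the regions of the 6 genes were forebrain-only, against 33.4% over all genes.

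The share of forebrain-only regions varied between genes within both families. It was 47.2% for Sox5, 46.2% for Sox6 and 41.2% for Sox4, each above the 32.4% over all genes, but 27.3% for Sox11 and 21.4% for Sox13, and Sox12 had none. Of the 266 SoxD regions, 121 (45.5%, exact 95% interval 39.4 to 51.7) were forebrain-only, and 4 (1.5%, interval 0.411 to 3.81) were open in all 5 libraries. Of the 98 SoxC regions, 33 (33.7%, interval 24.4 to 43.9) were forebrain-only, and 9 (9.18%, interval 4.29 to 16.7) were open in all 5. The forebrain-only intervals of the 2 families overlap. The ectoderm-only share of ectoderm-only and forebrain-only regions together was 13.2% for SoxC (5 of 38, interval 4.41 to 28.1) and 6.2% for SoxD (8 of 129, interval 2.72 to 11.9), against 6.82% over all genes. Both intervals hold that value. The intervals are exact Clopper-Pearson ones and cover counting error only. With lists of equal length the shares were 22.7% and 12.2%, against 20.5% over all genes.

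**Figure D3:**
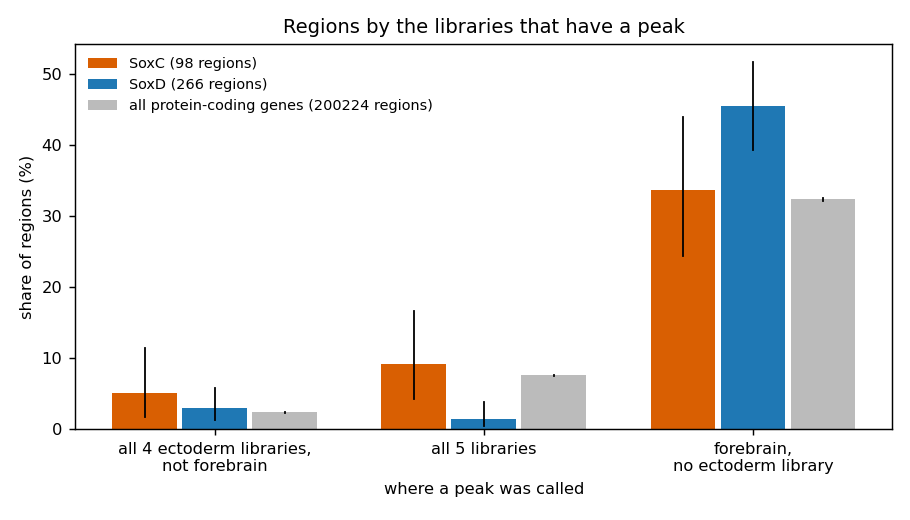
Share of regions (y axis, percent, with exact 95% intervals) that were ectoderm-only, open in all 5 libraries, or forebrain-only, for SoxC genes, SoxD genes and all protein-coding genes. Forebrain-only regions made up 33.7% of SoxC and 45.5% of SoxD regions, against 32.4% of regions over all genes.

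Counted per length of sequence nearest to the genes, the 6 genes held 4.43 ectoderm-only and 52.5 forebrain-only regions per Mb, against 2.20 and 30.1 over all protein-coding genes. The SoxC values were 6.65 and 43.9 per Mb, and the SoxD values 3.67 and 55.4. Both counts exceeded the genome's in both families, as did the density of regions of any kind, at 130.3 per Mb for SoxC and 121.9 for SoxD against 92.9 over all genes.

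Sox4 had 2 ectoderm-only and 21 forebrain-only regions, and 4 open in all 5 libraries. Both ectoderm-only regions lay on the 3′ side of the gene, inside the long non-coding gene 2610307P16Rik. The nearer one, chr13:28867204-28867833, was 81.5 kb beyond the 3′ end of Sox4. Its fold was 10.3 and 9.69 in the forelimb lists and 8.52 and 13.4 in the hindlimb lists, at percentiles 92.6, 94.7, 95.1 and 96.8. In forelimb and hindlimb alike this exceeded the fold at the Sox4 promoter in the same list. The other, chr13:28838125-28838885, lay 110.4 kb beyond the 3′ end, with folds of 7.61 and 5.69 in forelimb and 6.22 and 12.2 in hindlimb. The nearest forebrain peaks were 6134 and 5939 bp from these regions. Less sequence is nearest to Sox4 before the gene, where Cdkal1 is 238.0 kb away, than on the 3′ side.

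The forebrain-only regions of Sox4 lay mostly on the same side, 17 of them on the 3′ side and 4 before the gene. The 3 highest by −log10 p were chr13:28774620-28775542 (fold 7.06), chr13:28792271-28793059 (6.54), both in 2610307P16Rik, and chr13:29014777-29016004 (5.91), which lies 61.8 kb before the gene. Sites of both kinds thus lay along 2610307P16Rik, which also held 3 regions used by both tissues. One, chr13:28757780-28758357, had a peak in all 5 libraries, and chr13:28768467-28769276 and chr13:28801292-28801698 had one in forebrain and in each ectoderm library but hindlimb replicate 1. Of the regions open in all 5 libraries, chr13:28958280-28960039, 6.02 kb before the start, had folds of 5.44 and 4.55 in forelimb, 5.51 and 5.29 in hindlimb, against 7.82 in forebrain.

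Sox11 had 3 ectoderm-only and 12 forebrain-only regions, and 2 open in all libraries. Its ectoderm-only regions also lay on the 3′ side. The strongest, chr12:27136050-27136558, was 197.9 kb beyond the 3′ end, just inside the 200 kb limit. It had folds of 6.93 and 7.09 in forelimb and 4.71 and 9.81 in hindlimb. A neighbour, chr12:27143187-27143794, in the non-coding gene Gm9866, had folds of 2.50 and 3.66 in forelimb and 5.79 and 7.54 in hindlimb. In the 2 hindlimb libraries it stood at percentiles 88.9 and 86.0, and in forelimb replicate 1 at 1.07, close to the calling threshold. The third, chr12:27310256-27311297, 23.9 kb beyond the 3′ end in Gm52005, had folds of 5.41 and 3.29 in forelimb and 3.35 and 5.42 in hindlimb. The 2 Sox11 regions that missed this class by 1 ectoderm library lay before the gene instead, 116.4 and 160.2 kb away. The farther one, chr12:27502668-27503493, had folds of 5.50 and 6.05 in forelimb and 6.11 in hindlimb replicate 2.

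Forebrain-only regions of Sox11 stood on both sides, 5 on the 3′ side and 7 before the gene. The highest by p was chr12:27150789-27151801 (fold 8.78), also in Gm9866. The others were chr12:27408354-27408988 (9.35), 66.0 kb before the gene, and chr12:27248149-27248869 (7.59). Apart from the promoter, the region open in every library was chr12:27391537-27392320, 49.1 kb before the gene, with a fold between 3.63 and 4.15 in ectoderm and of 3.92 in forebrain.

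Sox5 spans 953.9 kb and had 6 ectoderm-only and 75 forebrain-only regions, with 1 open in all 5 libraries. All 6 ectoderm-only regions lay inside the gene, which fills 75.7% of the sequence nearest to it. The strongest by its lowest rank, chr6:144398012-144398526, lay 384.0 kb into the gene. Its fold was 8.27 and 7.26 in the forelimb lists and 4.69 and 10.0 in the hindlimb lists. Next was chr6:144444627-144444866, 337.5 kb into the gene, with folds of 7.32 and 7.48 in forelimb and 5.22 and 6.83 in hindlimb. The forebrain-only region with the highest fold at any of the 6 genes, chr6:144445783-144446455 with a fold of 15.5, lay 917 bp from it. Neither tissue had a peak at the other's site.

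The region chr6:144620849-144621653 had folds of 7.96 and 4.40 in forelimb and 4.92 and 7.56 in hindlimb. At chr6:144131708-144132260 they were 6.65 and 5.08 in the forelimb lists and 3.54 and 11.1 in the hindlimb lists. At chr6:144607058-144607617 they were 6.58 and 4.78 in the forelimb lists and 3.38 and 2.88 in the hindlimb lists. The calls there could not differ between limbs, as the class requires a peak in all 4 ectoderm libraries. No limb difference is read from folds of separate lists. The last, chr6:144648071-144648554, was at the threshold in hindlimb replicate 1, with folds of 4.14 and 5.45 in forelimb and 2.16 and 4.18 in hindlimb, and lay 390 bp from a forebrain-only peak of fold 2.73.

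Of the 75 forebrain-only regions of Sox5, 62 were inside the gene. They were spread along it, 27 before its midpoint and 35 after it. Of the 6 ectoderm-only regions, 5 were before it, too few regions to read a placement from. The 1 ectoderm-only region inside Sox6 lay after the midpoint of that gene. The forebrain-only regions of Sox5 had folds between 2.29 and 15.5 with a median of 3.69. Besides the one of fold 15.5, the highest by p were chr6:144056446-144057611 (10.4) and chr6:144251284-144252643 (7.71). The only region open in all 5 libraries, chr6:144427115-144427522, was weak, with folds of 4.27 and 4.73 in forelimb, 3.51 and 2.52 in hindlimb, against 4.09 in forebrain. A further region, chr6:144814693-144815289, 32.8 kb before the gene, had a forebrain fold of 10.6 and a peak in 3 ectoderm libraries, but not in hindlimb replicate 1.

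Sox6 spans 569.9 kb and had 2 ectoderm-only and 43 forebrain-only regions, with 3 open in all libraries. The ectoderm-only region chr7:115580526-115580993, 460.1 kb into the gene, had folds of 4.33 and 4.34 in forelimb and 7.71 and 10.8 in hindlimb. Here too, no limb difference is read from folds of separate lists. A region at chr7:115582469-115582772 nearby had a peak in every ectoderm library but forelimb replicate 1, and none in forebrain. The other ectoderm-only region, chr7:115322993-115323468, lay 147.7 kb beyond the 3′ end, with folds of 3.29 and 4.60 in forelimb and 3.43 and 8.17 in hindlimb. Farther along, chr7:115310395-115311196 was open in all 5 libraries, with folds of 7.06 and 7.93 in forelimb, 5.12 and 11.0 in hindlimb, against 5.59 in forebrain.

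Of the forebrain-only regions of Sox6, 28 lay inside the gene and 15 beyond its 3′ end, and none lay before it, where the gene 1110004F10Rik is 40.6 kb away. The highest by p were chr7:115865666-115867094 (fold 8.58), chr7:115604752-115605411 (10.0) and chr7:115966204-115966794 (9.08). In this gene 34 of the 43 had a −log10 q of 5 or more, against 47 of 75 in Sox5, 11 of 21 in Sox4 and 9 of 12 in Sox11. Over the 6 genes it was 101 of 154 (65.6%), against 55.2% of forebrain-only regions over all genes. Sox13 had no ectoderm-only region and 3 forebrain-only ones, none of them above a fold of 2.40. Stronger forebrain peaks of Sox13 lay in regions that also had an ectoderm peak. Examples are chr1:133492108-133493697 (forebrain fold 9.99, hindlimb replicate 2 fold 2.72) and chr1:133397510-133398210 (forebrain fold 7.34, forelimb replicate 2 fold 3.43). Sox12 had neither an ectoderm-only nor a forebrain-only region.

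**Figure D4:**
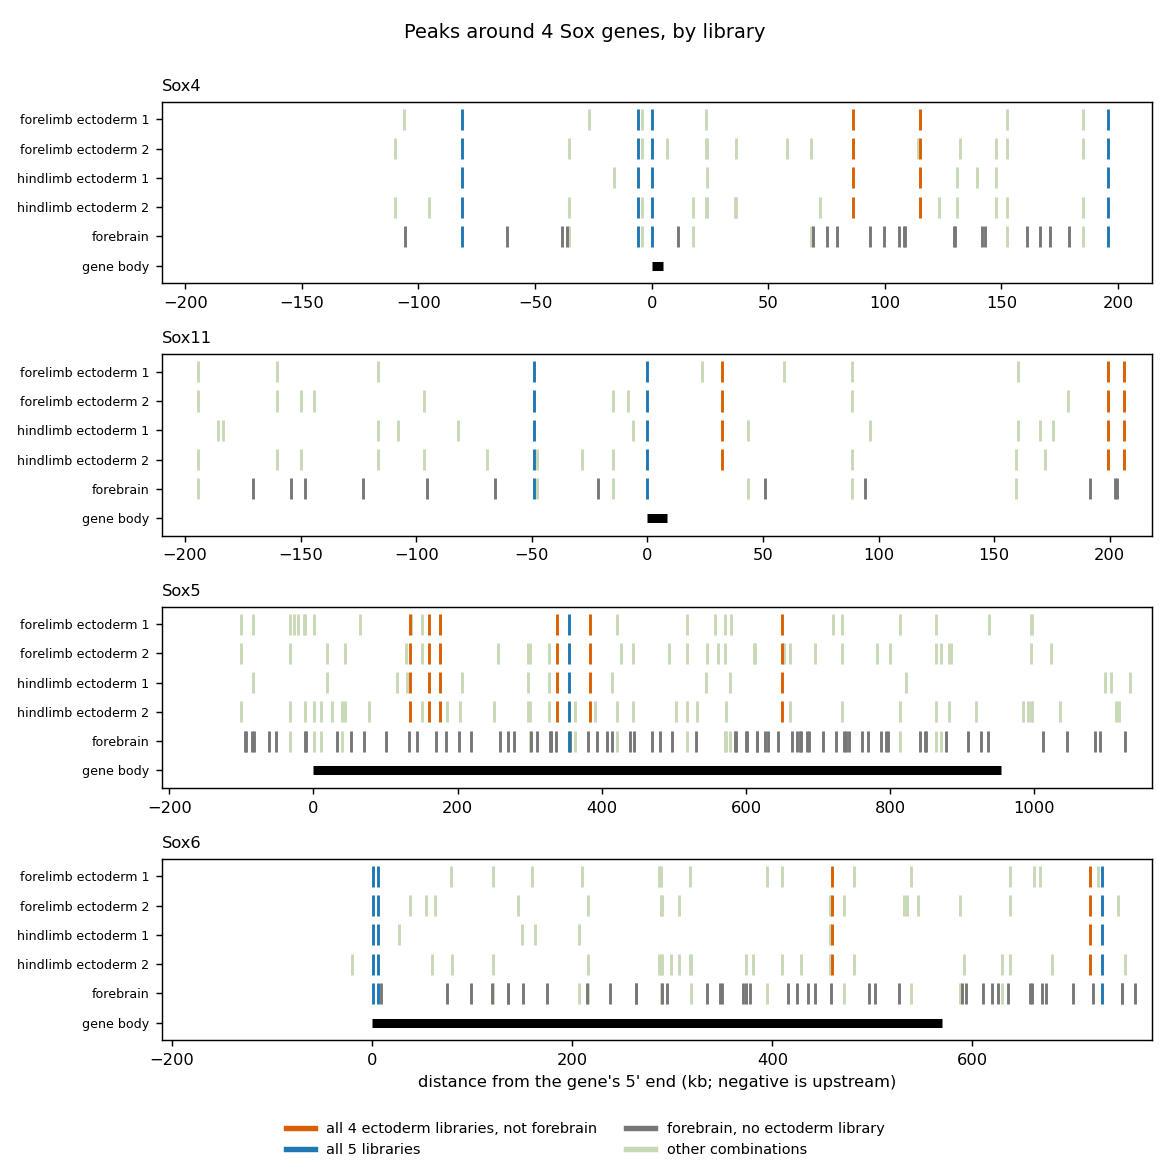
Peaks of each library around Sox4, Sox11, Sox5 and Sox6, 1 row per library, placed by distance from the gene's 5′ end (x axis, kb, negative before the gene); the bar is the gene body and the colour says which libraries share the region. Ectoderm-only regions (orange) lie on the 3′ side of Sox4 and Sox11 and inside Sox5, and forebrain-only regions (grey) run along the whole of Sox5 and Sox6.

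The 13 ectoderm-only regions overlap no forebrain peak by definition. The nearest forebrain peak was 390 to 11234 bp away, with a median of 3023 bp, against a median of 5732 bp for the ectoderm-only regions of all genes. It was over 2 kb away for 10 of the 13, against 77.9% over all genes. None of the 13 lay within 1 kb of a gene end. Inside their gene were 7 (53.8%), near the 50.3% over all genes. Their median percentile was 80.8 and 75.2 in the forelimb lists and 80.5 and 86.6 in the hindlimb lists, near those of ectoderm-only regions over all genes (74.6, 77.5, 71.0 and 82.8). In 8 of the 13, all 4 peaks had a −log10 q of 5 or more. For this count and that of gene ends the share over all genes is not known, so neither is read as particular to these regions. A further 13 regions (3.57%, against 3.01% over all genes) missed the ectoderm-only class by 1 ectoderm library. The one without a peak was hindlimb replicate 1 in 7 of them, forelimb replicate 1 in 5 and forelimb replicate 2 in 1.

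**Figure D5:**
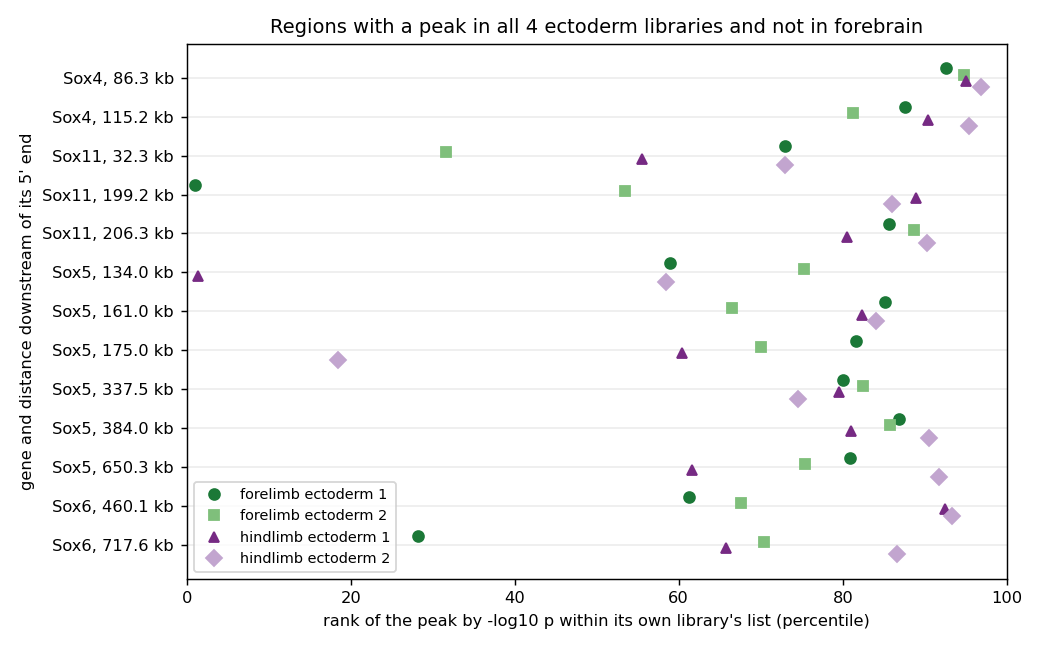
Rank of each of the 13 ectoderm-only regions within each ectoderm library's own list (x axis, percentile by −log10 p), labelled by gene and distance downstream of its 5′ end. The Sox4 region at 86.3 kb lies between percentiles 92.6 and 96.8, while 2 regions have 1 library at percentile 1.40 or lower.

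Replicates give the scale of error in these calls. Of the forelimb replicate 1 regions of the 6 genes, 52.4% also had a peak in forelimb replicate 2 (55.6% over all genes), and 44.3% the other way round (56.4%). Of the hindlimb replicate 1 regions, 54.0% had one in hindlimb replicate 2 (52.7%), and 28.1% the other way round (34.2%). Forelimb replicate 1 shared more of its regions with hindlimb replicate 2, the longest ectoderm list, than with its own replicate (68.3% against 52.4%). The order was the same over all genes (58.0% against 55.6%). Of the 211 forebrain regions, 15.2% and 15.6% had a peak in the forelimb and 8.06% and 21.3% in the hindlimb libraries. Over all genes these were 28.8%, 27.0%, 17.7% and 28.3%. Of the forebrain regions, 73.0% had no ectoderm peak at all, against 61.6% over all genes. In all, 263 of the 364 regions (72.3%, against 69.5% over all genes) were found in 1 library. They numbered 20 and 31 in forelimb, 24 and 34 in hindlimb, against 154 in forebrain. Over all genes such regions made up 8.72% and 9.03%, 8.79% and 10.6%, and 32.4% of regions in that order. In the reverse case, 0 and 1 of the 364 regions were missing from a forelimb library alone, 9 and 0 from a hindlimb library alone and 13 from forebrain alone. Over all genes the shares were 0.181% and 0.28%, 3.04% and 0.136%, and 2.37% in that order. The 10 of 364 regions missing from a single ectoderm library compare with 3.64% of regions over all genes.

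Forelimb and hindlimb ectoderm differed in both replicates at 2 of the 364 regions. A peak in both forelimb libraries and neither hindlimb library was found at 1 region (1.98% over all genes), and the opposite at 1 (0.671%). The first, chr6:144210072-144210927 inside Sox5, had forelimb folds of 3.02 and 3.53 and also a forebrain peak of fold 4.95. The second, chr13:28822467-28822796 on the 3′ side of Sox4, had hindlimb folds of 2.67 and 4.92. Each had at least 1 peak with a −log10 q under 5, and both are named here with their values already seen.

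Other Sox genes and genes known as targets were counted the same way. At the 14 other Sox genes, 4 regions were ectoderm-only and 116 forebrain-only, an ectoderm-only share of 3.33%. The forebrain-only share of regions was 42.3% at the 6 SoxC and SoxD genes, against 46.4% of the 250 regions of the other Sox genes and 32.4% over all genes, so the 6 did not stand above the other Sox genes. The 4 were split between Sox9 (2 and 20), which directs cartilage and hair follicle development, and Sox14 (2 and 11). The forebrain-only count was highest at Sox2 (0 and 37), a factor of neural progenitors. Among 8 genes known as targets of SoxC proteins in neurons (Tubb3, Dcx and Tead2) or of SoxD proteins with Sox9 in cartilage (Col2a1, Acan, Matn1, Col9a1 and Col11a2), there were 95 regions. Of these, 1, at Acan, was ectoderm-only (1.05%, against 2.37% over all genes), and 43 were forebrain-only (45.3%, against 32.4%). Matn1 alone held 17 of the 43. Dcx, a microtubule protein of young neurons, had 0 and 7, with a promoter peak in forebrain alone. The other SoxC targets differed, with 0 and 1 at Tubb3 and 0 and 0 at Tead2. Both had a promoter peak in forebrain and forelimb replicate 1, and Tead2 also in hindlimb replicate 2.

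The gene whose 5 shares of regions with a peak came closest was Nbea for Sox5, with a root mean square difference of 1.3 percentage points among 179 genes with 0.5 to 2 times as many regions. It was Auts2 for Sox6 (1.26 points, 687 genes), Ston2 for Sox4 (1.96 points, 1987 genes) and Cdkn3 for Sox11 (2.29 points, 2522 genes). The measure rests on 5 libraries.

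The labelled tissues were checked on marker genes. Around the 7 epidermis markers, 17 of 112 regions were ectoderm-only and 27 forebrain-only. The ectoderm-only share of the 2 kinds together was 38.6%, against 6.82% over all genes. Around the 7 forebrain markers the counts were 0 and 68 of 125 regions. Of the 5 epidermis markers with a promoter window, 4, 4, 2 and 4 had a peak there in the ectoderm libraries and 2 in forebrain. Promoter windows of the 6 forebrain markers that have one held a peak for 1 gene in each ectoderm library and for 5 in forebrain. Of the 6 limb mesenchyme and cartilage markers, where Sox5 and Sox6 are also active, 3 have a promoter window. Peaks were present at 2, 0, 1 and 1 of them in the ectoderm libraries and at 3 in forebrain. The Twist1 window had a peak in forelimb replicate 1 and hindlimb replicate 2, the Acan window in replicate 1 of each limb, and the Prrx1 window in no ectoderm library, although another region of Prrx1 was open in all 5. For that list, 3 of 109 regions were ectoderm-only (2.75%) and 41 forebrain-only (37.6%), against 2.37% and 32.4% over all genes. Its Sox9 is also counted with the other Sox genes, and its Col2a1 and Acan with the targets. The counts were 3 and 29 of 66 regions for melanocyte and 2 and 37 of 97 for endothelial markers. They were 3 and 14 of 57 for Merkel cell and 0 and 20 of 65 for blood markers. The forebrain-only shares of these lists were 43.9%, 38.1%, 24.6% and 30.8% in that order. The part of these cells in the Sox results was not tested.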

How the data were processed

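ATAC-seq peaks of 5 mouse libraries were analysed. Per the submitters' processing notes, the tools were MACS2 2.1.1.20160309, Bowtie2 2.3.5, cutadapt 1.16, bedtools and Picard, with build mm10. No source used here states a shift of reads to the insertion point. The authors deposited 1 list per library, with a fold enrichment (ratio), −log10 p and −log10 q, a summit offset and a score, which was not used. The lowest −log10 q was 1.3 to 1.31 in the deposited lists. They give no read depth. Distinct peaks numbered 73830 and 73718 for forelimb, 51510 and 78147 for hindlimb and 120297 for forebrain on chromosomes 1 to 19, X and Y.

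Summits were assigned to the nearest of 21883 RefSeq protein-coding genes (GRCm38.p6) by distance to the gene body, ties kept. Peaks of all libraries were merged where they overlapped by 1 bp, and a region belonged to a gene if one of its summits did. Absence means that no peak passed the authors' threshold. Ranks are percentiles of −log10 p over the summits of a list. Density used the sequence nearest to each gene within 200 kb. The assignment and merging code was tested on simulated data. Python 3.11.15, pandas 2.3.3 and scipy 1.17.1 were used. The genes, lists and rules were chosen with earlier results of these data known. Named regions are all ectoderm-only ones, those within 1 kb of a gene end, the 3 forebrain-only ones of each gene with the highest −log10 p, and the shared ones with the highest forebrain −log10 p or the highest minimum ectoderm rank. Others named were chosen after their values were seen. Alternatives are given in the closing section.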

Additional observations from a re-analysis of the deposited data

How the results depend on the processing

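The main counts over the 6 genes were 13 ectoderm-only, 154 forebrain-only, 13 shared by all libraries, 1 forelimb-only and 1 hindlimb-only region. At a −log10 q of at least 5 there were 8 ectoderm-only, 8 shared, 2 forelimb-only and 0 hindlimb-only regions. Lists of equal length gave 60 forebrain-only, 0 forelimb-only and 4 hindlimb-only regions, and a SoxD ectoderm-only share of 12.2%. Widening summits by 100 bp in place of whole peaks gave 0 forelimb-only and 2 hindlimb-only regions. Within 100 kb of a gene there were 0 hindlimb-only regions. Inside gene bodies there were 7 ectoderm-only, 91 forebrain-only, 7 shared and 0 hindlimb-only regions, and the SoxC share could not be computed because it had no region of either kind. A peak in at least 3 of the 4 ectoderm libraries gave 26 ectoderm-only regions. Leaving out 1 ectoderm library at a time gave 13 to 20 ectoderm-only, 157 to 167 forebrain-only, 13 to 22 shared, 1 to 37 forelimb-only and 3 to 48 hindlimb-only regions. In the limb counts 1 library then stood for a limb. Of these, 20 ectoderm-only and 22 shared regions came without hindlimb replicate 1. The share of forebrain-only regions was above that over all genes in each of these settings, at 30.6% against 18.5% with lists of equal length and 59.6% against 41.7% at the stricter threshold. The ectoderm-only share of the 6 genes stood above that over all genes in the main setting (7.78% against 6.82%). It was also above inside gene bodies (7.14% against 6.06%) and without forelimb replicate 1 (9.77% against 7.22%). The same held without forelimb replicate 2 (8.05% against 7.2%) or hindlimb replicate 2 (7.22% against 6.72%). It was barely above with at least 3 of 4 ectoderm libraries (14.4% against 14.2%) and with widened summits (5.94% against 5.92%). It was below with lists of equal length (15.5% against 20.5%) and at the stricter threshold (6.2% against 6.74%). It was below also within 100 kb (6.67% against 6.83%) and without hindlimb replicate 1 (11.3% against 12.5%). No paired analysis was possible because these results are counts of called peaks with no test between groups, and forebrain has 1 library. Depth is unknown, so the depth behind an absent peak cannot be given.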
